A study of Mus musculus with 24 samples.

Results

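The mammalian circadian clock is described here through 10 of its genes, Arntl (which encodes BMAL1), Clock, Per1, Per2, Per3, Cry1, Cry2, Nr1d1 (REV-ERBα), Nr1d2 (REV-ERBβ) and Dbp. They were taken by gene symbol from a table of 17696 genes, in which each symbol had 1 row. Messenger RNA was sequenced from MIN6 cells, an insulinoma-derived line of mouse β cells, in 24 libraries that fell into 6 groups of 4. Scr cells carried a lentiviral vector with a scrambled sequence, ZIP cells a vector with an antisense sequence against the microRNA miR-146a-5p, and OE cells a vector that overexpressed miR-146a-5p. Scr+Cy, ZIP+Cy and OE+Cy were the same lines after 24 h with TNFα at 10 ng/ml, IL-1β at 5 ng/ml and IFNγ at 100 ng/ml. Every line was selected with puromycin and expanded from single clones, so that a difference between lines is also a difference between clones. The OE vector had another backbone and another fluorescent protein than the Scr and ZIP vectors. No label gave the hour of harvest, any synchronization of the cells or whether replicates were separate cultures, so p values measure the spread between these libraries.

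Cells keep time through a loop of transcription. BMAL1 and CLOCK bind together to E-boxes and activate the Per and Cry genes, whose proteins return to the nucleus and repress that activation. A further loop is formed by REV-ERBα and REV-ERBβ, which repress Arntl through elements that the activating ROR receptors also bind. DBP, itself under E-box control, carries the rhythm to output genes and to Per genes through D-boxes. In pancreatic islets this clock is known to time insulin secretion.

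The libraries held 26657792 to 37168232 reads assigned to genes. Every clock gene was well above the detection limit in every library, with between 108 and 11060 reads. The β cell identity given in the labels was checked against 8 markers, of which 7 reached a mean of 1 CPM (assigned reads per 1000000, after TMM scaling of library sizes) in the Scr and ZIP groups and 8 in the OE groups. Ucn3 was at 0.197 CPM in Scr and 19.6 CPM in OE. Markers of other islet cells were not absent. Gcg averaged 288 CPM over the untreated Scr libraries, above Slc2a2 (24.0 CPM), Nkx6-1 (254 CPM) and Ucn3 but below the other β markers. For untreated ZIP libraries the Gcg mean of 184.5 CPM exceeded only Slc2a2 (140 CPM) and Ucn3. The mean fell to 41.4 CPM for untreated OE libraries. Ppy averaged 8.89 CPM in those and had no read in untreated Scr or ZIP libraries. Krt19, a duct keratin, had no read in the 16 Scr and ZIP libraries and 12.4 to 24.2 CPM in the 8 OE libraries. The cytokine labels were checked with Irf1, an interferon-induced gene, which had 18.3 to 36.1 CPM in the 12 untreated libraries and 359 to 810 CPM in the 12 treated libraries. Untreated ZIP replicate 4 stood apart in Cxcl10, an interferon-induced chemokine gene, with 31.1 CPM against at most 8.94 CPM in the other untreated libraries. Replicate 1 of Scr, ZIP and Scr+Cy stood apart in the summed level of 4 mesenchymal markers (Col1a1, Col1a2, Dcn and Pdgfrb). The sum was 12.1, 33.5 and 42.8 CPM against at most 5.40 CPM in the other 21 libraries. Pdgfrb was at 0.768 CPM or less in every library and had no read in Scr+Cy replicate 1. The part of the Cxcl10 or mesenchymal departures in the clock gene values was not tested. Values without these libraries are given where they changed a result.

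The lines were made to alter miR-146a-5p, so its sequence from RefSeq and the matches to it in the clock genes are shown first, with the seed (bases 2 to 8) in capitals. The mature microRNA lies on the minus strand at chr11:43374435-43374456 of GRCm38 (mm10). Its own level was not measured in these libraries.
miR-146a-5p: uGAGAACUgaauuccauggguu
The letters AGTTCTC, which pair with that seed, were found in the annotated 3′ UTR of 3 of the 10 clock genes, Clock (chr5:76211884-76211890, minus strand), Per1 (chr11:69109549-69109555, plus strand) and Per2 (chr1:91416942-91416948, minus strand). The same letters were in the 3′ UTR of 13.1% of 15453 tested genes. Each match is given with 10 bases on either side and the seed match in capitals.
Clock: ttcccaaagcAGTTCTCtgggtctcct
Per1: gcagagtggaAGTTCTCagccccattt
Per2: tgctgccctgAGTTCTCcagtttgcag
A match is a description of letters, not a site shown to be bound.

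Promoter windows from RefSeq (GRCm38) ran from 250 bases before to 50 bases after an annotated start and were found for 9 of the 10 genes, Per2 being not among them. They were searched on both strands for the E-box CACGTG, the D-box TTANGTAA and the ROR and REV-ERB element TNGGTCA, held by 7.15%, 2.32% and 11% of 32851 promoters. The following windows show those elements in capitals, as matches of letters and not as sites shown to be bound. Arntl and Per1 had 2 windows each and Clock had 3. The Arntl window shown had 3 ROR and REV-ERB elements. The Per3 window had 2 D-boxes and a ROR and REV-ERB element, and the Per1 and Cry1 windows shown an E-box each. The other Arntl window lacked TAGGTCA, and the other Per1 window held none of these elements. The windows shown lie at chr7:113207261-113207560 (plus strand), chr4:151044616-151044915 (minus strand), chr11:69098699-69098998 (plus strand) and chr10:85185005-85185304 (minus strand).
Arntl: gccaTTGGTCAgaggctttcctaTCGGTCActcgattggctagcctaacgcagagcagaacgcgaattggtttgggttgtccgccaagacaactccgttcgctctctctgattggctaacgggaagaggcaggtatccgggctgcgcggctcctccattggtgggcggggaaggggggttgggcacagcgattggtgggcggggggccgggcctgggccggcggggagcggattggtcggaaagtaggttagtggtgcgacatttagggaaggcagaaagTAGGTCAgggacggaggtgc
Per3: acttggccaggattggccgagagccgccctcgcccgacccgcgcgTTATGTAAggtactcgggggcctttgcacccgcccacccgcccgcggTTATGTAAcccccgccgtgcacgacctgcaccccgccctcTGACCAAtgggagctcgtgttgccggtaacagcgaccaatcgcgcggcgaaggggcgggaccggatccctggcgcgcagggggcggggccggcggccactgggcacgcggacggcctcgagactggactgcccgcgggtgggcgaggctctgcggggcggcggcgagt
Per1: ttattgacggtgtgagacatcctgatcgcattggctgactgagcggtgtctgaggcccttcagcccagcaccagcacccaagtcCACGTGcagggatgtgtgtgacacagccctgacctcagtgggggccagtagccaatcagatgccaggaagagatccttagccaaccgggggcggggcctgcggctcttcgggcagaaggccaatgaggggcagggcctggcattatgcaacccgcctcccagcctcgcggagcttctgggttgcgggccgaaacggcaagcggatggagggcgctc
Cry1: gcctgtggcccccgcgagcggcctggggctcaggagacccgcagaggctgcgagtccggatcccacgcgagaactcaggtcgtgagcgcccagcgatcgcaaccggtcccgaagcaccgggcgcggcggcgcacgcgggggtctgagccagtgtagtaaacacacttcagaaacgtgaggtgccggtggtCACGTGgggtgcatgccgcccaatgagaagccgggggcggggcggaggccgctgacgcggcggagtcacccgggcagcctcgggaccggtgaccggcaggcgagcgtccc
The Cry2 window held a ROR and REV-ERB element. None of these elements was in the Clock, Nr1d1, Nr1d2 or Dbp windows, which says nothing of sequence outside them. The cyclic AMP response element TGACGTCA and the interferon-stimulated response element were searched as well and were in none of the 9 genes' windows, against 1.79% and 3.44% of all promoters.

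Levels of the clock genes in untreated Scr cells spanned a wide range. Per kilobase of exon, Clock was highest at 21.2 ± 1.36 CPM per kb (SD, n = 4) and Nr1d2 came next at 18.2 ± 0.886 CPM per kb, with no overlap between their libraries. Cry1, Per2, Cry2 and Per1 followed at 7.94, 7.51, 6.96 and 6.32 CPM per kb, and each overlapped the next gene in this order. Dbp at 4.58 and Nr1d1 at 3.73 CPM per kb overlapped each other. Arntl, the partner of Clock, was at 1.73 ± 0.177 CPM per kb and Per3 was lowest at 0.978 ± 0.12 CPM per kb, each without overlap with its neighbours. Exon lengths came from GENCODE M21 and not from the annotation used for counting.

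**Figure D1:**
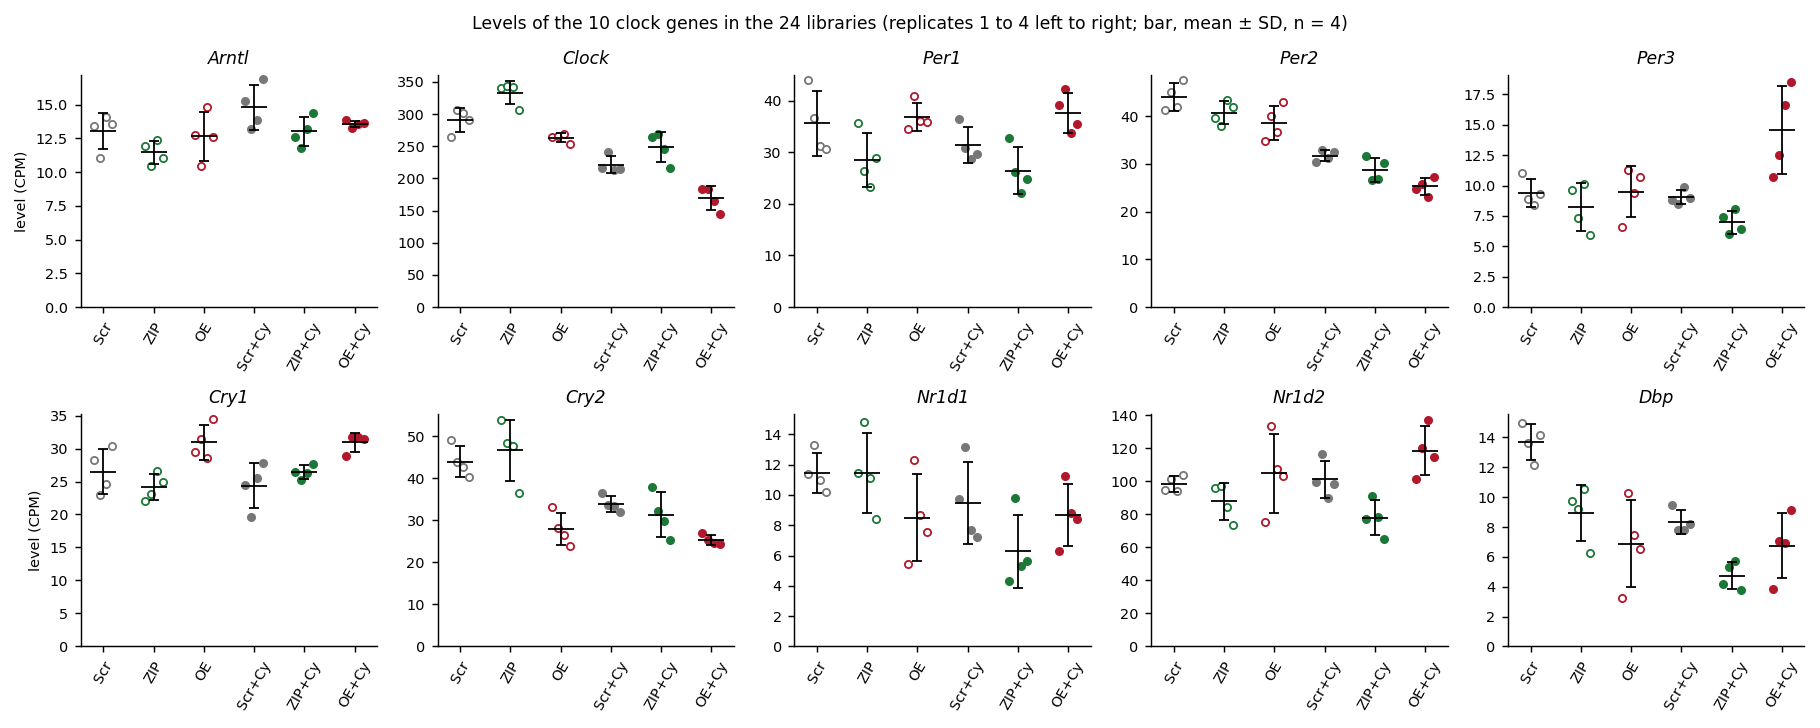
Level of each clock gene (CPM, linear axis from 0) in the 4 libraries of each group, untreated as open and cytokine-treated as filled points, with the mean and SD. Clock and Per2 were lower in every treated library than in every untreated library of the same line, and Dbp was highest in untreated Scr cells.

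The first question was what proinflammatory cytokines did to clock transcripts within each line. Clock and Per2 fell in all 3 lines, by 0.40 to 0.64 on the log2 scale, and Cry2 and Dbp fell in Scr and ZIP cells. Nr1d1 fell in ZIP cells. Per3 rose in OE cells, the only rise with an adjusted p under 0.05 among the clock genes of these 3 comparisons. Arntl, Per1, Cry1 and Nr1d2 did not pass in any of the 3 lines. These are amounts of RNA in a bulk extract, in which fewer cells of a kind and less RNA per cell cannot be told apart.

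Calls followed the thresholds of the study, 1.5-fold or more together with p under 0.05 before adjustment, in edgeR's quasi-likelihood test. By that rule 1 clock gene (Dbp) was called in Scr+Cy versus Scr, where 10.6% of all genes were called. In ZIP+Cy versus ZIP 2 were called (Nr1d1 and Dbp) against 12.5% of all genes, and in OE+Cy versus OE 3 (Clock, Per2 and Per3) against 21.0%. At a Benjamini-Hochberg adjusted p under 0.05 with no fold limit, 4 clock genes passed in Scr cells, all lower (Clock, Per2, Cry2 and Dbp), against 17.8% of all genes. The same rule gave 5 in ZIP cells, all lower (Clock, Per2, Cry2, Nr1d1 and Dbp), against 26.4%. In OE cells it gave 3, Clock and Per2 lower and Per3 higher, against 44.6%. The median log2 fold change of the 10 genes was −0.23 in Scr, −0.34 in ZIP and 0.01 in OE cells, and that of all genes was 0.00, −0.01 and 0.02. By the adjusted rule, which was added after seeing the data, the share of clock genes was below that of all genes in OE cells and above it in Scr and ZIP cells. By the fold and p rule it was 1, 2 and 3 of 10 in Scr, ZIP and OE cells, beside 10.6%, 12.5% and 21.0%. All genes include many with few reads, the clock genes number only 10, and the difference in shares was not tested.

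**Figure D2:**
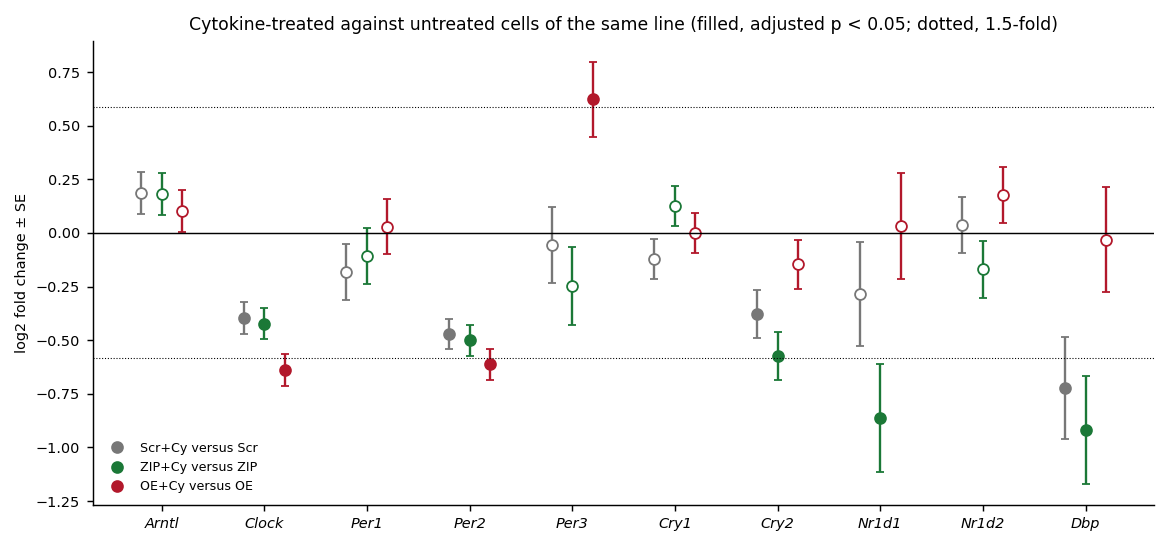
Log2 fold change (± SE) of each clock gene after cytokines in Scr, ZIP and OE cells, with filled points at an adjusted p under 0.05 and dotted lines at 1.5-fold. Clock and Per2 lie below 0 in all 3 lines, whereas Dbp lies at −0.72 and −0.92 in Scr and ZIP cells and at −0.03 in OE cells.

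Among the activators, Clock encodes the histone acetyltransferase partner of BMAL1. It measured 264, 307, 301 and 291 CPM in Scr replicates 1 to 4 and 216, 241, 213 and 215 CPM in Scr+Cy. In ZIP cells the levels were 340, 344, 343 and 307 CPM untreated and 264, 269, 245 and 217 CPM with cytokines. In OE cells they were 265, 266, 269 and 253 CPM untreated and 183, 184, 166 and 144 CPM with cytokines. Treated and untreated libraries did not overlap in any line, and the lowest value of all 24 was OE+Cy replicate 4. The log2 fold change was −0.40 ± 0.07 (SE) in Scr (adjusted p = 0.00034), −0.42 ± 0.07 in ZIP (adjusted p = 0.000114) and −0.64 ± 0.07 in OE cells (adjusted p = 1.64e-07). Without OE+Cy replicate 4 the change in OE cells was −0.58 and fell just short of 1.5-fold, with the adjusted p still at 6.19e-07.

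Arntl was between 10.4 and 16.9 CPM over the 24 libraries, the narrowest range of the 10 genes at 1.62-fold from lowest to highest. Its group means were 13.0, 11.5 and 12.7 CPM in Scr, ZIP and OE and 14.8, 13.0 and 13.6 CPM with cytokines. The cytokine change was 0.19 ± 0.10, 0.18 ± 0.10 and 0.10 ± 0.10 on the log2 scale (adjusted p = 0.209, 0.193 and 0.434), so that Arntl did not pass in any line.

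Per2, whose protein nucleates the repressor complex with the CRY proteins, fell in every line. Its levels were 41.3, 45.1, 41.9 and 47.5 CPM in Scr and 30.3, 32.9, 31.2 and 32.5 CPM in Scr+Cy. The ZIP libraries had 39.7, 38.0, 43.4 and 42.0 CPM, and the ZIP+Cy libraries 31.7, 26.7, 26.8 and 30.2 CPM. The OE libraries had 34.9, 40.2, 36.6 and 42.9 CPM, and the OE+Cy libraries 24.8, 25.9, 23.2 and 27.2 CPM. All 12 treated libraries lay below all 12 untreated ones. The log2 fold change was −0.47 ± 0.07 in Scr (adjusted p = 2.48e-05), −0.50 ± 0.07 in ZIP (adjusted p = 9.75e-06) and −0.61 ± 0.07 in OE cells (adjusted p = 2.21e-07). The fall in OE cells stood close to the 1.5-fold limit and was −0.58, −0.56 and −0.58 without OE replicate 2, OE replicate 4 or OE+Cy replicate 3, with adjusted p values of at most 6.48e-05 in every alternative run.

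Per3, the third period gene, passed the test in OE cells and not in the other lines. Scr libraries had 8.38 to 11.0 CPM, Scr+Cy libraries 8.51 to 9.88 CPM, ZIP libraries 5.91 to 10.2 CPM and ZIP+Cy libraries 6.01 to 8.05 CPM. OE libraries had 6.59, 11.3, 9.35 and 10.7 CPM and OE+Cy libraries 10.7, 12.5, 16.6 and 18.5 CPM. The highest levels of Per3 were thus in OE+Cy replicates 3 and 4, and OE+Cy replicate 1 overlapped the untreated OE libraries. Its rise in OE cells was 0.62 ± 0.17 on the log2 scale (adjusted p = 0.00499). It was 0.48 without OE replicate 1 or OE+Cy replicate 4 and 0.54 without OE+Cy replicate 3, each time under 1.5-fold and with an adjusted p of at most 0.0364. The change was −0.06 ± 0.18 in Scr and −0.25 ± 0.18 in ZIP cells (adjusted p = 0.882 and 0.355).

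Per1, which besides its E-box regulation is known as an immediate early gene of cyclic AMP signalling, had group means of 35.6 ± 6.21, 28.5 ± 5.24 and 36.8 ± 2.77 CPM in Scr, ZIP and OE and of 31.4 ± 3.46, 26.4 ± 4.54 and 37.6 ± 3.83 CPM with cytokines (SD, n = 4). Treated and untreated libraries overlapped in each line. The change was −0.18 ± 0.13, −0.11 ± 0.13 and 0.03 ± 0.13 on the log2 scale (adjusted p = 0.383, 0.605 and 0.89).

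Of the cryptochromes, the main repressors of BMAL1 and CLOCK, Cry2 fell in Scr and ZIP cells. It had 49.1, 43.8, 42.7 and 40.3 CPM in Scr and 36.4, 33.7, 33.3 and 32.0 CPM in Scr+Cy, without overlap. Its levels were 53.8, 48.4, 47.6 and 36.6 CPM in ZIP and 38.0, 32.2, 29.7 and 25.3 CPM in ZIP+Cy, where ZIP replicate 4 lay below ZIP+Cy replicate 1. In OE cells it had 33.1, 28.2, 26.5 and 23.9 CPM, and OE+Cy libraries had 26.9, 25.2, 24.6 and 24.3 CPM. The log2 fold change was −0.38 ± 0.11 in Scr (adjusted p = 0.0194), −0.57 ± 0.11 in ZIP (adjusted p = 0.00041) and −0.15 ± 0.11 in OE cells (adjusted p = 0.321). In Scr cells the adjusted p rose to as much as 0.074 without Scr replicate 1 or Scr+Cy replicate 4, and was 7.75e-05 with the replicate number as a block in the model. In ZIP cells the fall passed 1.5-fold without ZIP replicate 4, ZIP+Cy replicate 1 or ZIP+Cy replicate 2, at −0.67, −0.69 and −0.59. Cry1 changed by −0.12 ± 0.09, 0.13 ± 0.09 and 0.00 ± 0.09 (adjusted p = 0.431, 0.359 and 1), with group means between 24.2 and 31.0 CPM.

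Of the REV-ERB receptors, Nr1d1 fell in ZIP cells, with a wide spread in every line. It had 11.4, 13.3, 11.0 and 10.2 CPM in Scr and 9.73, 13.2, 7.69 and 7.21 CPM in Scr+Cy. It had 11.4, 14.8, 11.1 and 8.40 CPM in ZIP and 4.33, 9.82, 5.29 and 5.64 CPM in ZIP+Cy. It had 5.44, 12.3, 8.66 and 7.53 CPM in OE and 6.29, 11.3, 8.81 and 8.41 CPM in OE+Cy. Replicate 2 was the highest of every group, and treated and untreated libraries overlapped in each line. The fall in ZIP cells was 0.86 ± 0.25 on the log2 scale (adjusted p = 0.0125), and it missed the adjusted threshold without ZIP replicate 2 (adjusted p = 0.0542). With the replicate number as a block the adjusted p of this fall was 7.44e-05. The change was −0.28 ± 0.24 in Scr and 0.03 ± 0.25 in OE cells (adjusted p = 0.488 and 0.941). Nr1d1 shares 263 exon bases with Thra on the opposite strand, and use of strand in the counting is not given in the sources used here, so part of its reads may be of Thra. The level of Thra was 35.8, 31.0 and 14.4 CPM in the untreated Scr, ZIP and OE lines and at 34.8, 25.8 and 19.9 CPM with cytokines. Nr1d2, which has no such overlap, changed by 0.04 ± 0.13, −0.17 ± 0.13 and 0.18 ± 0.13 (adjusted p = 0.897, 0.375 and 0.291).

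Dbp, the D-box output factor, had 15.0, 13.6, 12.1 and 14.2 CPM in Scr and 9.48, 7.78, 7.79 and 8.17 CPM in Scr+Cy. In ZIP it had 9.77, 9.23, 10.5 and 6.25 CPM and in ZIP+Cy 4.19, 5.32, 5.71 and 3.77 CPM. In OE it had 3.26, 10.3, 7.45 and 6.55 CPM and in OE+Cy 3.86, 7.04, 6.95 and 9.11 CPM. Treated and untreated libraries did not overlap in Scr and ZIP cells and overlapped almost fully in OE cells, in which replicate 1 was the lowest with and without cytokines. The fall was 0.72 ± 0.24 on the log2 scale in Scr (adjusted p = 0.0351) and 0.92 ± 0.25 in ZIP cells (adjusted p = 0.00821), while the change in OE cells was −0.03 ± 0.24 (adjusted p = 0.943). In Scr cells the adjusted p rose to as much as 0.085 without Scr replicate 1, 2 or 4 or Scr+Cy replicate 2, 3 or 4. With the replicate number as a block it was 0.0247. Dbp shares 539 exon bases with Sphk2 on the opposite strand, whose group means stayed between 31.6 and 39.4 CPM.

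The second question was whether clock transcripts differed between the lines. Without cytokines, Dbp was lower in OE than in Scr cells, as was Cry2, by 0.99 and 0.65 on the log2 scale. Per2 was slightly lower and Cry1 slightly higher in OE cells. In ZIP cells Dbp was lower by 0.62 and Clock slightly higher, by 0.20. With cytokines, Dbp was lower in ZIP+Cy than in Scr+Cy and Per3 was higher in OE+Cy than in Scr+Cy. ZIP and OE cells were compared with the same Scr libraries, so these comparisons are not independent of each other.

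By the fold and p rule 1 clock gene (Dbp) was called in ZIP versus Scr, against 14.9% of all genes, and 2 (Cry2 and Dbp) in OE versus Scr, against 25.7%. With cytokines 2 (Nr1d1 and Dbp) were called in ZIP+Cy versus Scr+Cy, against 15.8%, and 1 (Per3) in OE+Cy versus Scr+Cy, against 28.5%. At an adjusted p under 0.05, 1 clock gene (Clock) passed in ZIP versus Scr against 28.3% of all genes, and 4 (Per2, Cry1, Cry2 and Dbp) in OE versus Scr against 50.1%. The counts with cytokines were 2 (Nr1d2 and Dbp) in ZIP+Cy versus Scr+Cy against 28.1%, and 5 (Clock, Per2, Per3, Cry1 and Cry2) in OE+Cy versus Scr+Cy against 53.4%. The shares of clock genes lay near or below those of all genes in both OE comparisons. Median log2 fold changes of the 10 genes were −0.15 and −0.09 for ZIP and OE without cytokines and −0.22 and −0.12 with them, and those of all genes lay between −0.01 and 0.01.

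**Figure D3:**
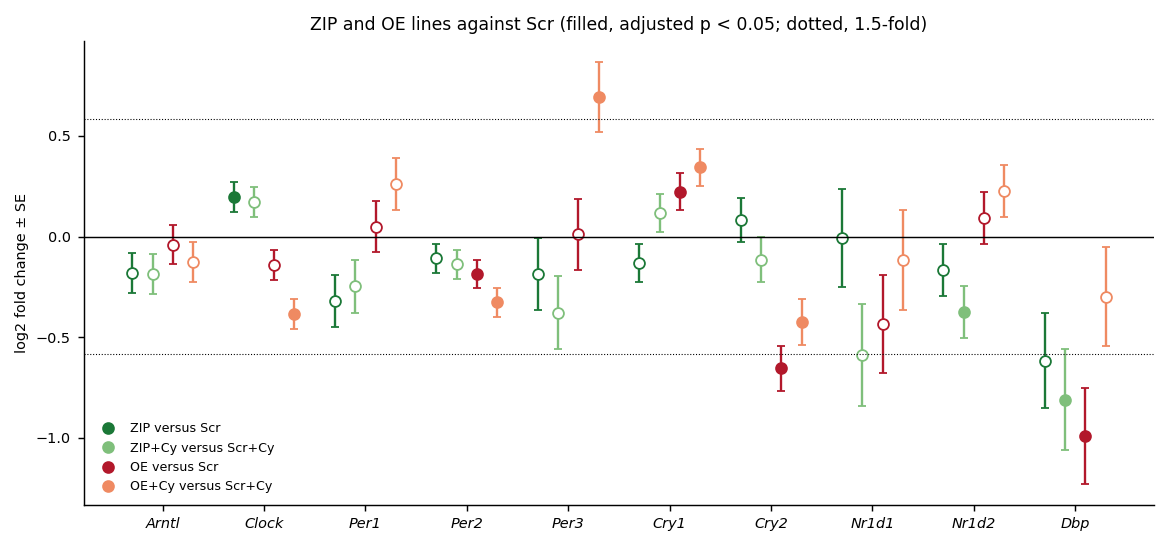
Log2 fold change (± SE) of each clock gene in ZIP and OE cells against Scr cells, without and with cytokines, with filled points at an adjusted p under 0.05 and dotted lines at 1.5-fold. Cry2 was lower in OE cells in both states, and Dbp was lowest relative to Scr in untreated OE cells at −0.99.

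Dbp was the clock gene that separated untreated Scr cells from both other lines. All 4 Scr libraries, at 12.1 CPM or more, lay above all 4 ZIP libraries, at 10.5 CPM or less, and above all 4 OE libraries, at 10.3 CPM or less. In OE cells the log2 fold change was −0.99 ± 0.24 (adjusted p = 0.00123). In ZIP cells it was −0.62 ± 0.24 (adjusted p = 0.0538), with an adjusted p of 0.0375 when the replicate number was a block. It was −0.48 (adjusted p = 0.166) without ZIP replicate 4, the library with raised Cxcl10, and −0.57 without Scr replicate 1, under 1.5-fold in each case. With cytokines Dbp was lower in ZIP+Cy than in Scr+Cy without overlap, by 0.81 ± 0.25 on the log2 scale (adjusted p = 0.0179). That adjusted p rose to as much as 0.0628 without ZIP+Cy replicate 1 or 4. Between OE+Cy and Scr+Cy the difference was −0.30 ± 0.24 (adjusted p = 0.316).

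Cry2 was lower in OE cells in both states. Every untreated OE library, at 33.1 CPM or less, lay below every Scr library, at 40.3 CPM or more, and the log2 fold change was −0.65 ± 0.11 (adjusted p = 2.91e-05). With cytokines the difference was −0.42 ± 0.11 (adjusted p = 0.00298), also without overlap. In ZIP cells Cry2 differed from Scr by 0.08 ± 0.11 without and −0.11 ± 0.11 with cytokines (adjusted p = 0.632 and 0.493). An opposite-strand transcript, D930015M05Rik, shares 295 exon bases with Cry2 and was at 0.581 CPM or less in every library. Cry1 moved the other way, at 31.0 ± 2.67 CPM in OE against 26.5 ± 3.38 CPM in Scr, a log2 fold change of 0.22 ± 0.09 (adjusted p = 0.0472) with overlapping libraries. With cytokines it was 0.34 ± 0.09 (adjusted p = 0.0032) without overlap. The untreated difference in Cry1 missed the threshold when only both groups were fitted (adjusted p = 0.0604) and without OE replicate 2 or 4 or Scr replicate 2 or 3 (adjusted p up to 0.177).

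Of the 3 genes whose 3′ UTR holds the seed match, Per2 alone passed the adjusted threshold in OE versus Scr without a replicate block. Clock was −0.14 ± 0.07 (adjusted p = 0.115), Per2 −0.19 ± 0.07 (adjusted p = 0.0319) and Per1 0.05 ± 0.13 (adjusted p = 0.786) on the log2 scale without cytokines. With cytokines Clock was lower in OE+Cy than in Scr+Cy by 0.39 ± 0.07 (adjusted p = 0.000112) and Per2 by 0.33 ± 0.07 (adjusted p = 0.000546), each without overlap, while Per1 was at 0.26 ± 0.13 (adjusted p = 0.0949). The untreated difference in Per2 missed the threshold when only both groups were fitted (adjusted p = 0.0542) and without OE replicate 1 or 3 or Scr replicate 2, 3 or 4 (adjusted p up to 0.124). In ZIP cells Clock was higher by 0.20 ± 0.07 (adjusted p = 0.0469) without overlap, Per2 was at −0.11 ± 0.07 (adjusted p = 0.278) and Per1 at −0.32 ± 0.13 (adjusted p = 0.0679). The adjusted p of Clock rose to as much as 0.148 without Scr replicate 1 or 4 or ZIP replicate 1, 2 or 3. With the replicate number as a block, the adjusted p in ZIP versus Scr was 0.0104 for Clock and 0.00698 for Per1, so that 3 clock genes passed in place of 1. In OE versus Scr the block gave 0.0404 for Clock, which then passed beside Per2 (0.0133). In OE+Cy versus Scr+Cy it gave 0.0135 for Per1. In these OE comparisons not every pair of same-numbered libraries had a correlation of departures over 0.1.

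Per3 was higher in OE+Cy than in Scr+Cy cells, by 0.69 ± 0.18 on the log2 scale (adjusted p = 0.00183), with all 4 OE+Cy libraries at 10.7 CPM or more and all 4 Scr+Cy libraries at 9.88 CPM or less. Without OE+Cy replicate 4 the difference was 0.57, under 1.5-fold, with an adjusted p of 0.0117. Untreated OE and Scr cells differed by 0.01 ± 0.18 (adjusted p = 0.983). In untreated OE cells Nr1d1 was at −0.43 ± 0.24 against Scr (adjusted p = 0.146), and without OE replicate 2 it was at −0.66 (adjusted p = 0.0326) and was called. The replicate block put it at −0.47 (adjusted p = 0.00747). The REV-ERB genes were lower in ZIP+Cy than in Scr+Cy cells, Nr1d1 by 0.59 ± 0.25 (adjusted p = 0.0886) and Nr1d2 by 0.38 ± 0.13 (adjusted p = 0.0342), both with overlap. With the replicate number as a block the adjusted p was 0.0032 for Nr1d1 and 0.0103 for Nr1d2, and 5 clock genes passed (Clock, Per1, Nr1d1, Nr1d2 and Dbp) in place of 2. The Nr1d1 difference was between −0.57 and −0.39 without Scr+Cy replicate 1 or 2 or ZIP+Cy replicate 1, 3 or 4, under 1.5-fold each time. The adjusted p of Nr1d2 rose to as much as 0.123 without Scr+Cy replicate 1, 2 or 4 or ZIP+Cy replicate 1, 3 or 4.

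The third question was whether the cytokine response itself differed from that of Scr cells, which was tested as an interaction. In ZIP cells no clock gene passed at an adjusted p under 0.05 in edgeR, none had an unadjusted p under 0.05, and none passed in DESeq2, with 0.0565% of all genes passing. With the replicate number as a block 3 had an unadjusted p under 0.05 (Nr1d1, Cry2 and Cry1), and none passed after adjustment (adjusted p = 0.356, 0.48 and 0.513). In OE cells none passed in edgeR, against 20.0% of all genes, 2 had an unadjusted p under 0.05 and 1 passed in DESeq2. Those 2 were Per3, whose response was higher by 0.68 ± 0.25 on the log2 scale (adjusted p = 0.0558, and 0.0314 in DESeq2), and Clock, whose response was lower by 0.24 ± 0.10 (adjusted p = 0.108). With the replicate number as a block both passed, at adjusted p = 0.0474 for Per3 and 0.0287 for Clock. The response of Dbp in OE cells was higher by 0.69 ± 0.34 (adjusted p = 0.166), and without OE replicate 2 or OE+Cy replicate 1 it was higher by 0.98 and 0.88 (adjusted p = 0.0389 and 0.047). Per3 passed as well without either library (adjusted p = 0.0322 and 0.0166). That Dbp fell past the threshold in Scr and ZIP cells and not in OE cells is therefore not shown to be a difference between the lines over all 24 libraries. Nor is this shown for Cry2, whose response in OE cells was higher by 0.23 ± 0.16 (adjusted p = 0.347).

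Beyond the 10 genes, 23 further genes of the pathway were counted, all of them in the table. Of these, 3 were called in ZIP versus Scr and 9 in OE versus Scr, all lower, with list medians of −0.09 and −0.23 on the log2 scale beside 0 for all genes. With cytokines 6 were called in ZIP+Cy versus Scr+Cy (1 higher, 5 lower) and 9 in OE+Cy versus Scr+Cy (3 higher, 6 lower), with medians of −0.13 and 0.12. Within lines, cytokines gave 5 calls in Scr (2 higher, 3 lower), 3 in ZIP (2 higher, 1 lower) and 5 in OE cells (4 higher, 1 lower), with medians of −0.09, −0.11 and 0.14. Of all genes, 14.9% were called in ZIP versus Scr and 25.7% in OE versus Scr. With cytokines these shares were 15.8% and 28.5%. Within lines they were 10.6% in Scr, 12.5% in ZIP and 21.0% in OE cells.

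**Figure D4:**
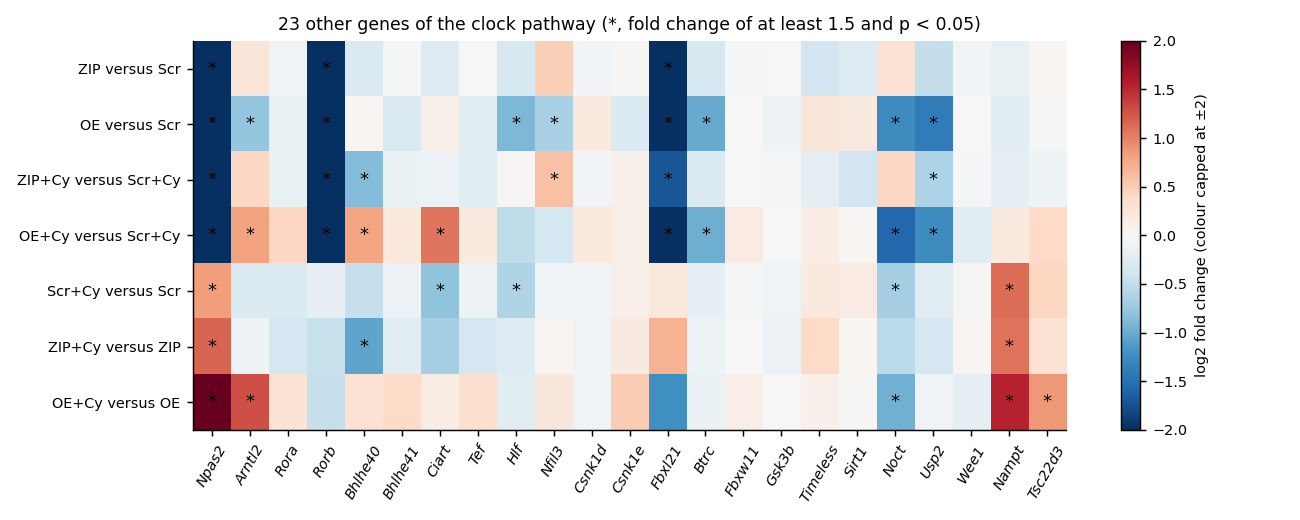
Log2 fold change of 23 other genes of the clock pathway in the 7 comparisons, with the colour capped at 2 in size and an asterisk at a fold change of at least 1.5 with p under 0.05. Npas2 and Rorb were lower in both other lines than in Scr, and Nampt was higher after cytokines in all 3 lines. Fbxl21 had fewer than 1 CPM in every library.

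Among activators and ROR receptors, Npas2, a paralog that can replace Clock as partner of BMAL1, was at 4.83, 3.13, 3.81 and 2.91 CPM in Scr, at 0.22 CPM or less in each ZIP library and at 0.109 CPM or less in each OE library. Its log2 fold change was −4.70 in ZIP and −5.33 in OE (adjusted p = 3.42e-11 and 1.54e-12), on as few as 2 reads in a library. Cytokines raised Npas2 in all 3 lines, by 0.84 in Scr, 1.16 in ZIP and 2.41 in OE cells (adjusted p = 0.00753, 0.0322 and 1.68e-05). Rorb, a ROR receptor, had 5.09 ± 1.10 CPM in Scr, 0.605 ± 0.201 CPM in ZIP and 0.432 ± 0.248 CPM in OE (SD, n = 4), a log2 fold change of −3.06 and −3.56 (adjusted p = 4.51e-08 and 1.82e-09). Arntl2, the paralog of Arntl, rose in OE cells by 1.29 (adjusted p = 0.00103), from 0.489 ± 0.247 to 1.20 ± 0.408 CPM.

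Among repressors and D-box factors, Hlf, a D-box activator of the same family as Dbp, was lower in OE than in Scr cells by 0.90 on the log2 scale (adjusted p = 3.77e-05), at 12.3 ± 2.02 against 22.9 ± 2.30 CPM. It fell with cytokines in Scr cells by 0.59 (adjusted p = 0.00816). Tef, the remaining member of that family, was at 46.9 ± 3.80 CPM in Scr and 40.0 ± 7.84 CPM in OE and was not called in any comparison. Nfil3, the repressor that competes at D-boxes, was lower in OE than in Scr by 0.65 (adjusted p = 2.32e-06) and higher in ZIP+Cy than in Scr+Cy by 0.59 (adjusted p = 1.91e-05). It lay on the same sides in the other state, without overlap but not called. The levels were 29.7 ± 3.17 CPM in ZIP against 21.5 ± 1.15 CPM in Scr, and 16.0 ± 0.662 CPM in OE+Cy against 20.5 ± 2.22 CPM in Scr+Cy. Ciart, a repressor of BMAL1 and CLOCK, was higher in OE+Cy than in Scr+Cy by 1.08 (adjusted p = 0.0135), at 6.50 ± 1.74 against 3.08 ± 1.05 CPM.

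Of the kinases, ligases and modifiers, Btrc, part of a ligase that marks PER proteins for degradation, was at 77.4 ± 2.59 CPM in Scr and 38.6 ± 1.57 CPM in OE, a log2 fold change of −1.0 (adjusted p = 5.53e-13), and −0.97 with cytokines (adjusted p = 1.14e-12). Fbxl21, an F-box gene, had at most 0.563 CPM in any library and was lower in OE by the test (adjusted p = 0.00211), on between 1 and 3 reads in each OE library. The other 6 genes of that list (Csnk1d, Csnk1e, Fbxw11, Gsk3b, Timeless and Sirt1) were not called in any comparison. Of the output genes, Noct, a rhythmic phosphatase, was lower in OE than in Scr by 1.27 (adjusted p = 3.09e-10), at 78.7 ± 4.63 against 190 ± 24.6 CPM. It fell with cytokines in Scr by 0.66 and in OE by 0.96 (adjusted p = 3.26e-05 and 7.68e-08). In ZIP cells it was also lower with cytokines, at 160 ± 16.5 against 233 ± 14.6 CPM without overlap, but was not called. Usp2, a rhythmic deubiquitinase gene, was lower in OE by 1.40 (adjusted p = 2.88e-07). Nampt, which makes a precursor of NAD+, rose with cytokines from 138 to 299 CPM in Scr, from 124 to 263 CPM in ZIP and from 118 to 342 CPM in OE cells (adjusted p = 1.28e-06, 1.87e-06 and 3.56e-09). Tsc22d3, a glucocorticoid-induced gene, rose in OE cells by 0.87 (adjusted p = 1.66e-05).

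Because Per1 is also an immediate early gene, 10 immediate early and cyclic AMP target genes were set beside it. In OE versus Scr 7 of the 10 were called, 5 higher and 2 lower, against 25.7% of all genes, with a list median of 0.76 beside 0 for all genes. Egr1 was at 50.8, 49.2, 60.4 and 133 CPM in OE and at 12.0, 3.71, 5.72 and 8.92 CPM in Scr, a log2 fold change of 3.27 (adjusted p = 1.10e-07), with OE replicate 4 the highest. Fosb and Nr4a1 were higher in OE by 1.46 and 1.38 (adjusted p = 0.00161 and 0.0134). Per1 did not follow them in OE versus Scr, at 0.05 ± 0.13. Junb, by contrast, rose with cytokines in all 3 lines by 2.07, 2.26 and 2.18 (adjusted p = 4.05e-11, 1.97e-11 and 6.07e-12) while Per1 did not pass in any. Junb was the 1 gene of the list called in Scr+Cy versus Scr and in ZIP+Cy versus ZIP, where 10.6% and 12.5% of all genes were called. In OE+Cy versus OE it was the 1 that rose of 4 called, against 21.0% of all genes. Of the genes that fell, Nr4a2 and Egr1 decreased by 1.08 and 0.94 (adjusted p = 0.000152 and 0.0266). Between lines, 1 of the 10 was called in ZIP versus Scr (Junb, lower by 0.68, adjusted p = 0.00142) against 14.9% of all genes. With cytokines 1 was called in ZIP+Cy versus Scr+Cy against 15.8%, and 8 in OE+Cy versus Scr+Cy (6 higher, 2 lower) against 28.5%. Ppargc1a, a coactivator gene, was among the latter, higher by 1.46 (adjusted p = 2.52e-08). Per1 was at −0.32 in ZIP versus Scr, −0.25 in ZIP+Cy versus Scr+Cy and 0.26 in OE+Cy versus Scr+Cy. The adjusted p was 0.0679, 0.175 and 0.0949, and 0.00698, 0.0332 and 0.0135 with the replicate number as a block.

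The spread between replicates was itself uneven over the clock genes. The pooled SD within groups on the log2 scale was 0.40 for Dbp, 0.39 for Nr1d1 and 0.28 for Per3, more than in 94.1%, 93.6% and 87.0% of 12670 genes with a mean of at least 1 CPM. For Per2 and Clock it was 0.10 and 0.11, near the median of 0.12 over those genes. Thus Dbp and Nr1d1 had the least precise fold changes of the 10, with standard errors near 0.24, and Per2 and Clock the most precise, near 0.07.

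Departures from the group mean were shared between groups by replicate number. Nr1d1 was highest in replicate 2 and Arntl, the gene REV-ERBα represses, lowest in replicate 2 in all 6 groups. On average over the groups, replicate 2 departed by 0.47 in Nr1d1, 0.17 in Nr1d2 and −0.16 in Arntl on the log2 scale. Cry2 was highest in replicate 1 and lowest in replicate 4 in all 6 groups, at 0.19 and −0.18 on average. Such a pattern, the same number highest or lowest in all 6 groups, was found in 3 of the 10 clock genes and in 5.23% of the 12670 genes. The bracketed tags of the labels change with the replicate number, and what they stand for is not explained there, so a culture batch, a time of harvest and other differences between numbers cannot be told apart. Mesenchymal markers were also raised in replicate 1 of 3 groups, and their part in the Cry2 pattern was not tested.

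**Figure D5:**
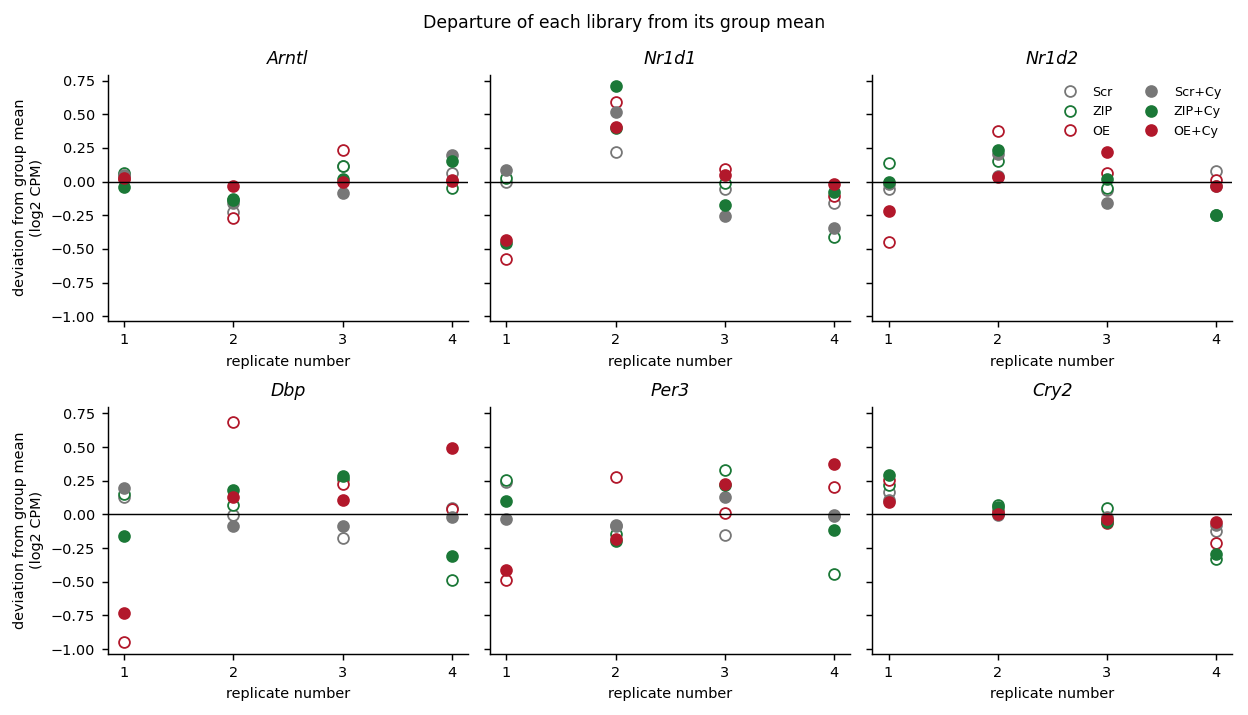
Departure of each library from its group mean (log2 CPM) by replicate number, for 6 clock genes, with untreated groups as open and treated groups as filled points. Nr1d1 lies above 0 and Arntl below 0 in replicate 2 of all 6 groups, and Dbp and Per3 lie lowest in replicate 1 of the OE line.

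Some pairs of clock genes also departed together within groups. Over the 24 libraries, which share their normalization and group means, the departures of Dbp had a Pearson r of 0.79 with Per3, 0.77 with Nr1d2 and 0.63 with Nr1d1, and those of Nr1d1 and Nr1d2 had 0.78. Per3 had a lower r with the REV-ERB genes, 0.49 with Nr1d2 and 0.19 with Nr1d1. Arntl had −0.50 with Nr1d1 and −0.42 with Nr1d2, and Clock had −0.51 with Cry1. Per2 did not go with Nr1d1 or Dbp, at −0.10 and 0.16. The low library of Dbp, Nr1d1, Nr1d2 and Per3 in the OE line was replicate 1. It had 3.26, 5.44, 75.2 and 6.59 CPM, each the lowest of its group. In ZIP the low library was replicate 4, with 6.25, 8.40, 73.6 and 5.91 CPM, again each the lowest of its group. The pairs named were picked by their values from all pairs of the 10 genes. These correlations are descriptions and were not tested. For each of the 10, the gene with the highest r, given next, was outside the 10.

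Over all genes with a mean of at least 1 CPM, those whose departures were most like each clock gene's were found in the same way. For Dbp the closest was Tef (r = 0.91), the D-box factor of the same family, then Insyn2a and Foxo3 (both r = 0.89). Nr1d2 was closest to Lpin1 (r = 0.92), then Armcx1 (r = 0.88) and Zbtb44 (r = 0.86), and Nr1d1 to Flcn (r = 0.85), Lpin1 (r = 0.83) and Slc25a44 (r = 0.82). Per1 was closest to Nr4a3 (r = 0.91), Midn (r = 0.86) and Nr4a1 (r = 0.84), of which Nr4a3 and Nr4a1 are immediate early genes. Per3 was closest to Cbx7, Per2 to 6430706D22Rik, Clock to Kpna1, Cry1 to Fau, Cry2 to Sidt2 and Arntl to Ccdc96, with r of 0.85, 0.78, 0.92, 0.88, 0.90 and 0.86.

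Levels over all 24 libraries, which hold the differences between groups as well, gave other neighbours. Clock was closest to Ldlrad4 (r = 0.97), Bag4 (r = 0.96) and Synrg (r = 0.95). Per2 was closest to Nt5dc2 (r = 0.93), to Cenpf (r = 0.93), a gene of mitosis, and to Rflnb (r = 0.92). Cry1 was closest to the ribosomal protein genes Rpl5 (r = 0.90), Rps18 (r = 0.89) and Rps27a (r = 0.88). Per3 was closest to Angel1, Foxo3 and Mepce (r = 0.91, 0.90 and 0.90), and Nr1d2 to Ep300, Slc38a2 and Foxo3 (r = 0.87, 0.84 and 0.84). Dbp was closest to Bri3bp, Lpin1 and Pip4p1 (r = 0.88, 0.87 and 0.86), and Nr1d1 to Dusp18 (r = 0.82), Lpin1 (r = 0.81) and Dbp (r = 0.77), the 1 case in which a clock gene was among the 3 closest to another. For Cry2 the closest were Zer1, Gm2a and Mapk8ip1 (r = 0.94 each), for Per1 Gm16845 (r = 0.87), Slc4a2 (r = 0.86) and Cep170b (r = 0.85), and for Arntl Fam98b (r = 0.74), Sin3a (r = 0.72) and Hdac1 (r = 0.72).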

How the data were processed

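Polyadenylated RNA libraries of 24 samples were grouped by their labels. According to the methods of the study, read quality was assessed in FastQC, STAR placed reads on the mm10 genome, and Partek Flow assigned them to RefSeq transcripts, and the labels name STAR 2.7.8a and Partek 11.0.24.0204. Genes with fewer than 10 reads in total had been removed. The quantifier and its use of strand are not given in the sources used here. The deposited tables held raw estimated counts of each gene, 30.3% of them not whole numbers, and a normalized signal per gene, which the authors made from them and which was used here only to check the scaling.

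Estimated counts were rounded. One model with 6 group means was fitted to all 17696 genes and 24 libraries after TMM scaling in edgeR 4.0.16 under R 4.3.3, and tested by quasi-likelihood, two-sided. The SE is the size of the log2 fold change divided by the square root of F. Calls needed a fold change of at least 1.5 and p under 0.05, and interactions an adjusted p under 0.05. The rule of an adjusted p under 0.05 with no fold limit was added after seeing the data. Adjusted p values are over all genes. CPM are TMM scaled, and log2 CPM used a prior count of 2. The 10 genes, the lists and the tests were chosen with earlier results of these data known. From each list of further genes, at most 3 called genes a comparison were named by size of change, if their adjusted p was under 0.05 and the groups did not overlap. Tef, Nfil3 and Arntl2 beside such comparisons, Fbxl21 and the uncalled genes were named for context after their values were seen. Some genes of these lists are not reported here. The scripts were tested on simulated data.

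Depth was 26657792 to 37168232 assigned reads per library (median 30701023). No library pair agreed within counting noise. Pairing by replicate number was checked by correlating departures from group means over 12670 genes between same-numbered libraries. Every correlation was over 0.1 in 5 of the 7 comparisons (0.141 to 0.634) and not in OE versus Scr (−0.129 to 0.295) or OE+Cy versus Scr+Cy (0.000631 to 0.165). Same-numbered libraries also share a tag in the labels, which do not state a pairing. Alternatives were DESeq2 1.42.0, edgeR with DESeq2's size factors, a filterByExpr filter, fits of the compared groups alone, a replicate block, other call rules and leaving out each library. Exon positions and 3′ UTRs came from GENCODE M21 on GRCm38, promoters and the microRNA from RefSeq.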

Additional observations from a re-analysis of the deposited data

Results flagged for a closer look

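Clock in ZIP replicate 4, at 307 CPM against 340 to 344 CPM in the other ZIP libraries, lay apart from its group by Dixon's criterion. So did Clock in Scr+Cy replicate 2, at 241 CPM against 213 to 216 CPM, and Cry1 in OE+Cy replicate 1, at 28.8 CPM against 31.4 to 31.8 CPM. With 60 groups of 4 examined and 3 apart, chance alone gives about 1 in 20.

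Of the further clock pathway genes named, 2 had a cytokine response that differed between OE and Scr cells by the interaction test. The response of Arntl2 was higher in OE cells by 1.57 on the log2 scale (adjusted p = 0.00993) and that of Npas2 by 1.56 (adjusted p = 0.0154). Both rest on low levels. Npas2 was at 0.0869 CPM in OE, with as few as 2 reads in a library, and at 0.484 CPM in OE+Cy. In Scr and Scr+Cy it was at 3.67 and 6.60 CPM. Arntl2 was at 0.489 and 1.20 CPM in OE and OE+Cy, and at 0.833 and 0.687 CPM in Scr and Scr+Cy.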

How the results depend on the processing

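Over 26 pairs of a clock gene and a comparison with a call or an adjusted p under 0.05, 338 values under the alternatives kept their direction. Of these, 33 lost the adjusted threshold of 0.05 and 6 gained it. The number of clock genes called moved as follows. In ZIP versus Scr it was 1, and 0 when an adjusted p under 0.05 was required beside the fold limit. In ZIP+Cy versus Scr+Cy it was 2, and 1 in DESeq2, with DESeq2's size factors, with the filterByExpr filter and with only the groups compared, where Nr1d1 fell under the fold limit, and 1 with an adjusted p, which Nr1d1 did not pass. With an adjusted p and no fold limit, a rule chosen after seeing the data, the count was 4 in OE versus Scr, 4 in Scr+Cy versus Scr, 5 in ZIP+Cy versus ZIP and 5 in OE+Cy versus Scr+Cy. The interaction in OE cells gave 0, and 1 in DESeq2, with filterByExpr and with a fold difference of at least 1.5 at an unadjusted p. Without 1 library the count ranged from 0 to 1 in ZIP versus Scr, from 2 to 3 in OE versus Scr and in ZIP+Cy versus ZIP, from 1 to 3 in OE+Cy versus OE, from 1 to 2 in ZIP+Cy versus Scr+Cy, from 0 to 1 in OE+Cy versus Scr+Cy and from 0 to 2 in the OE interaction.

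With the replicate number as a block, 2 clock genes (Per3 and Clock) passed the OE interaction, and the counts by the fold and p rule moved in no other comparison. In OE versus Scr and OE+Cy versus Scr+Cy the libraries share a number and a tag, and the check did not find pairing in every replicate.

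Dbp and Nr1d1, with as few as 108 and 124 reads in a library, had the widest spread between replicates, and counting error was not separated from that spread.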
